A study of Mus musculus with 18 samples.

Results

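Voltage-gated sodium channels were examined in the dorsal root ganglia (DRG) of mice as 9 genes, chosen by name, among the 36737 genes that were counted. They were the alpha subunits *Scn1a*, *Scn3a*, *Scn8a*, *Scn9a*, *Scn10a* and *Scn11a* and the beta subunits *Scn2b*, *Scn3b* and *Scn4b*. All 9 passed the filter on low counts in every comparison. The L3–L5 ganglia of 18 adult CD1 mice, an outbred stock, were sequenced in bulk, with 1 library per mouse. The 3 groups were Sham surgery, Fracture (tibial fracture with vehicle) and Fracture+PDX, and each held 6 mice, 3 males and 3 females. PDX is protectin DX, a lipid mediator derived from docosahexaenoic acid. Ganglia of both fracture groups were taken 3 days after the injury, in which a pin was placed in the left tibia and the bone was cut. The day of sampling for Sham and the PDX dose of these mice are not given in the sources used here. The comparisons asked which subunits changed with fracture and which differed when PDX was given.

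An alpha subunit forms the ion-conducting pore and opens when the membrane is depolarized, which carries the rising phase of the action potential. Beta subunits are single-pass membrane proteins that associate with the pore and tune its gating, its surface level and its contacts with other cells. DRG neurons hold channels that tetrodotoxin blocks and channels that resist it, and the resistant ones are known from nociceptors, the neurons that sense tissue damage. *Scn9a* encodes Nav1.7, a threshold channel whose loss in humans abolishes pain, *Scn10a* encodes Nav1.8, which carries much of the nociceptor action potential, and *Scn11a* encodes Nav1.9, a slow current near the resting potential.

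The grouping of the alpha subunits by tetrodotoxin rests on a single codon of the pore loop of the first domain, and the coding stretch around it is shown for 5 of them to make that grouping visible. Each stretch holds 45 bases from the GENCODE M21 transcripts (GRCm38, the build called mm10), written 5′ to 3′ on the coding strand, and each lay within 1 exon. The capitals mark the codon that decides the sensitivity.
Scn3a: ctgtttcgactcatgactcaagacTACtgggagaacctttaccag
Scn8a: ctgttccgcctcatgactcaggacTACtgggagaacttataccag
Scn9a: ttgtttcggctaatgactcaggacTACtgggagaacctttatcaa
Scn10a: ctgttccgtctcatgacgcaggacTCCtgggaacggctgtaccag
Scn11a: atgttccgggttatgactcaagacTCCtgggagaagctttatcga

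The codon TAC reads as tyrosine, an aromatic residue of blocked channels, whereas TCC reads as serine, the residue of *Scn10a* and *Scn11a*. In *Scn1a*, whose stretch is not shown, the codon was TTC, which reads as phenylalanine, another aromatic residue. The stretches on the minus strand of chromosome 2 lay at chr2:65521795-65521839 in exon 9 of *Scn3a* and chr2:66548983-66549027 in exon 9 of *Scn9a*. That of *Scn8a* lay at chr15:100971614-100971658 on the plus strand, in exon 9. Those of *Scn10a* and *Scn11a* lay at chr9:119666369-119666413 and chr9:119805662-119805706 on the minus strand, each in exon 9. Over these 45 bases, *Scn10a* and *Scn11a* matched each other at 71.1%, whereas *Scn3a* and *Scn8a* matched at 88.9%. *Scn9a* matched *Scn11a* at 82.2% and *Scn10a* at 71.1%, so identity over the stretch did not follow the grouping throughout. The beta genes were all on the plus strand of chromosome 9. *Scn2b* and *Scn4b* lay close together there, at chr9:45117782-45130070 and chr9:45138395-45154152.

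The libraries held between 63235040 and 82824942 counted reads. CPM is the count of a gene scaled to a common library total, after each total was adjusted by the TMM factor of edgeR. Log2 CPM correlated at r = 0.969 to 0.981 between any pair of libraries, and no pair was identical. Behind the values of a member stood 279 to 485 reads in *Scn3a* and 43680 to 64926 reads in *Scn10a*. The neuronal markers *Rbfox3*, *Snap25*, *Tubb3* and the rest of a list of 12 neuron genes were detected in every group, as were all 7 genes of a Schwann cell list, so the libraries held neurons with their glia. A count on bulk tissue cannot tell a change in the number of cells of a type from a change in RNA per cell. Genes on the other strand overlap some members. *Gm13629* shares 180 of the 12772 exon bases of *Scn9a* and had 2.11 to 3.70 CPM, here without the TMM factor, against 243 CPM or more for *Scn9a*. The strand setting of the counting is not given in the sources used here.

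*Scn10a* had the highest level of the 9 members in all 3 groups. Levels were compared between genes in FPKM, which the authors scaled for transcript length. In Sham mice *Scn10a* ranged from 77.3 to 89.8 FPKM with a median of 82.2, and *Scn11a* ranged from 56.1 to 67.7 with a median of 59.0. *Scn9a* stood at 18.6 to 19.7 FPKM. *Scn1a*, which encodes Nav1.1 of large and mechanosensitive neurons, ranged from 9.68 to 12.1 FPKM, and *Scn8a*, which encodes Nav1.6 of the nodes of Ranvier, from 8.92 to 11.4. *Scn3a*, known as an embryonic channel that returns after nerve injury, was the lowest member at 0.33 to 0.40 FPKM.

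**Figure D1:**
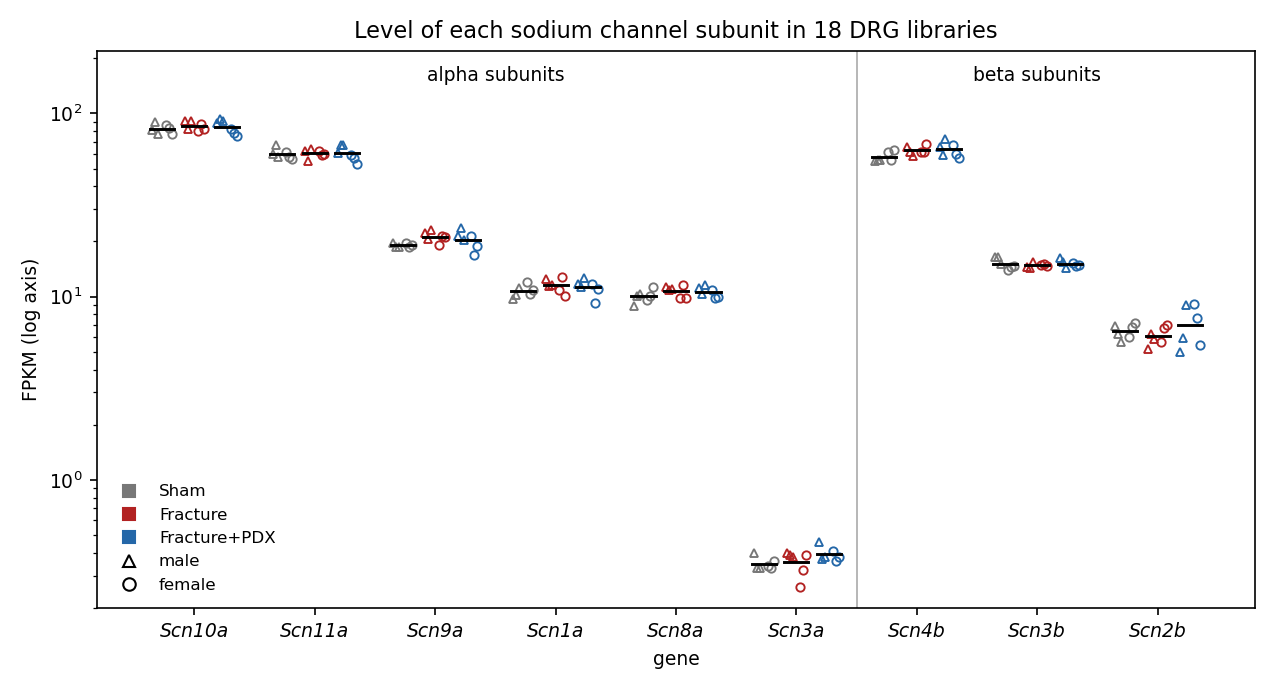
Level of each member in each library, in FPKM on a log axis, by gene on the horizontal axis. Colours mark the group, symbols the sex, and black bars the mean of 6 mice. *Scn10a* is highest at a mean of 82.5 FPKM in Sham and *Scn3a* lowest at 0.348, and the groups of a gene lie close together.

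Of the beta subunits, *Scn4b*, which binds the pore through a disulfide bond and favours resurgent current, ranged from 54.9 to 63.5 FPKM in Sham mice. *Scn3b*, which binds without such a bond, ranged from 14.0 to 16.5 FPKM, and *Scn2b*, the other disulfide-linked subunit, from 5.68 to 7.18. In the order of the Sham means, *Scn11a* and *Scn4b* overlapped and *Scn1a* and *Scn8a* overlapped, and every other pair of neighbours was separate. The mean of *Scn4b* lay below that of *Scn11a* in Sham, at 57.9 against 60.2 FPKM. It lay above *Scn11a* in Fracture, at 62.9 against 60.5, and in Fracture+PDX, at 63.7 against 60.9, with overlapping values in each group. In 7 of the 18 libraries the 9 genes followed the order of the Sham means exactly.

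The share of the tetrodotoxin-resistant subunits overlapped between the groups. *Scn10a* and *Scn11a* together took 78.0% ± 1.30 (SD, n = 6) of the summed FPKM of the 6 alpha subunits in Sham, 76.9% ± 0.803 in Fracture and 77.3% ± 1.09 in Fracture+PDX. The Sham mice lay between 76.2% and 80.0%, the Fracture mice between 76.0% and 78.0% and the Fracture+PDX mice between 76.1% and 78.9%. The Fracture mean was 1.07 points under the Sham mean (difference -1.07, two-sided exact permutation test, p = 0.113). The difference was 0.409 points for Fracture+PDX against Fracture (exact p = 0.47) and -0.664 points for Fracture+PDX against Sham (exact p = 0.346). Without Sham female replicate 3, the first of these became -1.43 points (exact p = 0.0303), and without Sham male replicate 2 it became -0.675 points (exact p = 0.221).

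**Figure D2:**
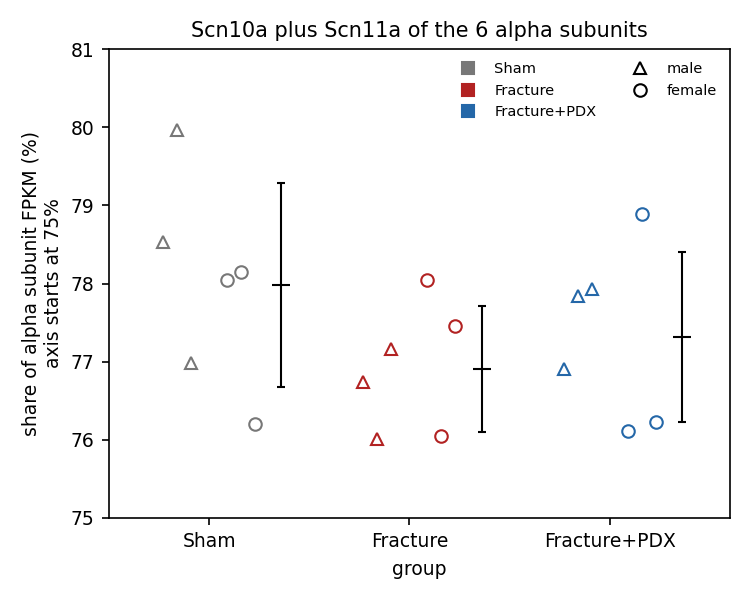
Share of the summed FPKM of the 6 alpha subunits taken by *Scn10a* and *Scn11a*, in percent, by group, with the vertical axis starting at 75%. Points are mice, and bars show the mean and SD of 6 mice. All mice lie between 76.0% and 80.0%, and all 3 groups overlap from 76.2% to 78.0%.

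Of the 9 members, 1 rose with fracture, *Scn9a*, by 1.12-fold, and none fell. In Sham mice *Scn9a* ranged from 257 to 277 CPM with a median of 268, and in Fracture mice from 268 to 329 with a median of 299. Of the 6 Fracture mice, 5 lay above every Sham mouse, and the 6th, a female at 268 CPM, lay among them. The log2 fold change was 0.16 (SE 0.040, 95% interval 0.08 to 0.25, adjusted p = 0.0451, edgeR quasi-likelihood test with Benjamini-Hochberg adjustment over 20659 genes). The exact permutation test of log2 CPM gave p = 0.00866. Among all genes tested, 2.92% were called in either direction and 1.09% were called higher, so the 1 call of *Scn9a* is given for that gene and not for the family.

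The call of *Scn9a* stood close to the threshold. Its log2 fold change stayed between 0.14 and 0.19 when single libraries were left out, but the adjusted p ranged from 0.0183 to 0.112. It passed in 3 of these 12 fits and was lost without any 1 of Sham male replicates 1, 2 and 3, Sham female replicates 1 and 2, Fracture male replicates 1 and 3, and Fracture female replicates 2 and 3. It was also lost with all 18 libraries in one fit (adjusted p = 0.110) and with a block for mice of the same sex and number (adjusted p = 0.0973). The same held in limma on log2(FPKM + 1) (adjusted p = 0.0745) and on log2(FPKM + 0.1) (adjusted p = 0.0743).

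**Figure D3:**
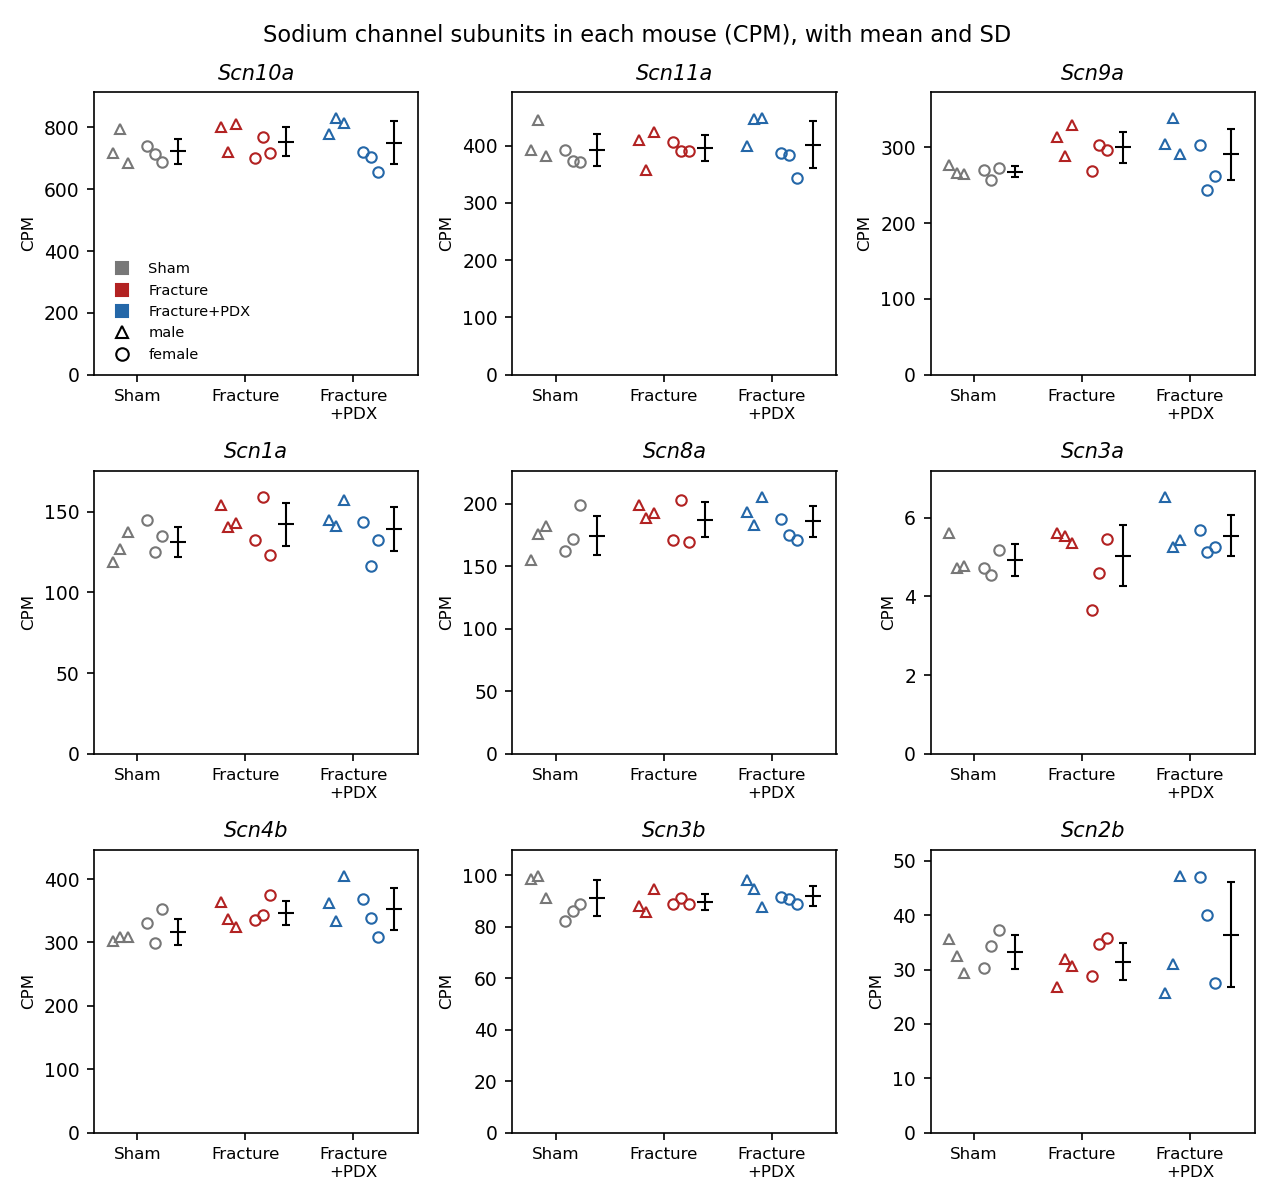
CPM of each member in each mouse, in 9 panels whose vertical axes start at 0, by group. Triangles are males, circles are females, and black bars show the mean and SD of 6 mice. In the *Scn9a* panel 5 of 6 Fracture mice lie above every Sham mouse, and in the *Scn2b* panel the Fracture+PDX mice spread from 25.6 to 47.3 CPM.

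*Scn4b* showed the next smallest p among the members in this comparison. It ranged from 299.9 to 352 CPM in Sham with a median of 309, and from 325 to 374 in Fracture with a median of 340.0. All 6 Fracture mice lay above the Sham median, and 2 of them lay above every Sham mouse. Its log2 fold change was 0.13 (SE 0.043, 95% interval 0.04 to 0.22), and the adjusted p was 0.120. *Scn9a* and *Scn4b* were the 2 of 9 members with an unadjusted p under 0.05, against 18.5% of all genes tested.

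The other alpha subunits that tetrodotoxin blocks overlapped between the groups. *Scn1a* ranged from 119 to 145 CPM in Sham with a median of 131, and from 123 to 159 in Fracture with a median of 142. Its log2 fold change was 0.12 (95% interval -0.02 to 0.26, adjusted p = 0.370). *Scn8a* ranged from 155 to 199 CPM in Sham and from 170 to 203 in Fracture, with a log2 fold change of 0.10 (95% interval -0.03 to 0.24, adjusted p = 0.432). *Scn3a* ranged from 4.53 to 5.61 CPM and from 3.66 to 5.61, and its interval of -0.20 to 0.26 was the widest of the members.

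The tetrodotoxin-resistant subunits had narrower intervals around values near 0. *Scn10a* ranged from 684 to 793 CPM in Sham with a median of 715, and from 700.4 to 811 in Fracture with a median of 745. The log2 fold change was 0.06 (95% interval -0.03 to 0.15, adjusted p = 0.488). *Scn11a* ranged from 371 to 445 CPM in Sham and from 357 to 423 in Fracture, with a log2 fold change of 0.02 (95% interval -0.08 to 0.12, adjusted p = 0.890).

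*Scn2b* and *Scn3b* were the members with a fold change below 0. *Scn2b* ranged from 29.4 to 37.3 CPM in Sham and from 26.8 to 35.8 in Fracture, at a log2 fold change of -0.08 (95% interval -0.23 to 0.08, adjusted p = 0.633). *Scn3b* ranged from 82.2 to 99.8 CPM in Sham and from 85.6 to 94.5 in Fracture, at -0.02 (95% interval -0.11 to 0.07, adjusted p = 0.847). The median log2 fold change of the 9 members was 0.06, against 0.002 for all genes tested. The groups of 0 of the 9 members were free of overlap, against 2.49% of genes.

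**Figure D4:**
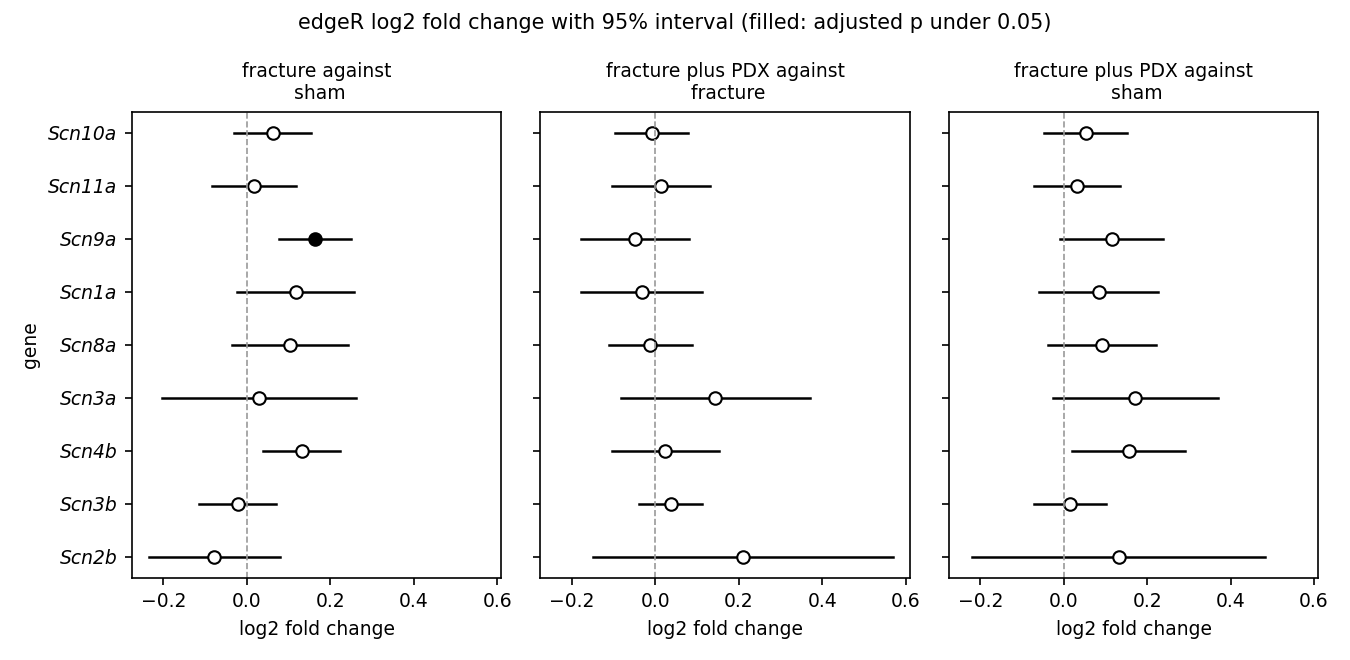
edgeR log2 fold change of each member in the 3 comparisons of groups, on the horizontal axis, with lines for the 95% interval. A filled point has an adjusted p under 0.05, and the only one is *Scn9a* in fracture against sham at 0.16.

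General neuronal genes were also higher after fracture. The mean log2 CPM of the 12 neuron genes was higher by 0.12 in Fracture than in Sham (exact permutation test, p = 0.00433). In edgeR 3 of the 12 were called higher, against 1.09% of all genes tested. The summed CPM of the 12 ranged from 9060 to 9768 in Sham and from 10125 to 10361 in Fracture, so these groups did not overlap. None of the 12 was at 0 over a group. Over 10 nociceptor genes the mean difference was 0.08 (exact p = 0.0823). These lists were chosen with earlier results of these data known. Their p-values, here and against Sham below, are therefore descriptive and give no independent support.

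Lists of macrophage, endothelial, fibroblast and placental genes held genes called lower after fracture, and none called higher. Among all genes tested, 1.83% were called lower. The summed CPM of 6 macrophage genes ranged from 72.8 to 81.3 in Sham and from 52.0 to 67.1 in Fracture, with 2 of 6 called lower, and that of 5 endothelial genes ranged from 104 to 145 and from 88.9 to 109, with 2 of 5 called lower. The sum of 5 fibroblast genes ranged from 1471 to 1946 CPM in Sham and from 1385 to 1614 in Fracture, with 1 of 5 called lower. The sum of 8 placental genes ranged from 170.4 to 550 CPM in Sham and from 29.4 to 256 in Fracture, with 2 of 8 called lower. The sum of 8 skeletal muscle genes ranged from 24.4 to 592 and from 49.8 to 1150 CPM, with none called. No gene of these 5 lists was at 0 over a group. With none called, 0 of 7 Schwann cell, 0 of 6 red blood cell and 0 of 7 neutrophil genes had a fold change above 0. Their median log2 fold changes were -0.21, -0.53 and -0.81. Of 6 satellite glia genes 5 lay above 0, also with none called. The part of all these lists in the values of the members was not tested.

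Set against the neuron genes of the same library, *Scn9a* was higher by 0.04 in Fracture (exact p = 0.29) and *Scn4b* by 0.006 (exact p = 0.887). *Scn1a* and *Scn8a* lay at -0.01 and -0.02. *Scn2b* was lower by this measure, at -0.20 (exact p = 0.0325), and so was *Scn3b*, at -0.15 (exact p = 0.0238). These were the 2 of 27 such tests, 9 members in 3 comparisons, with p under 0.05, and the p-values are not adjusted. Against the nociceptor genes the same differences were -0.16 for *Scn2b* (exact p = 0.134) and -0.11 for *Scn3b* (exact p = 0.115). The 1 of the 27 tests against the nociceptor genes with p under 0.05 was *Scn3a* in Fracture+PDX against Fracture, at 0.18 (exact p = 0.0476, not adjusted), against 0.13 relative to the neuron genes (exact p = 0.26). The exact p of *Scn2b* passed 0.05 without any 1 of Sham male replicate 1, Sham female replicates 2 and 3, Fracture male replicates 1 and 3, and Fracture female replicate 1, reaching 0.0671. That of *Scn3b* reached 0.0519 without either of Fracture male replicates 1 and 2.

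**Figure D5:**
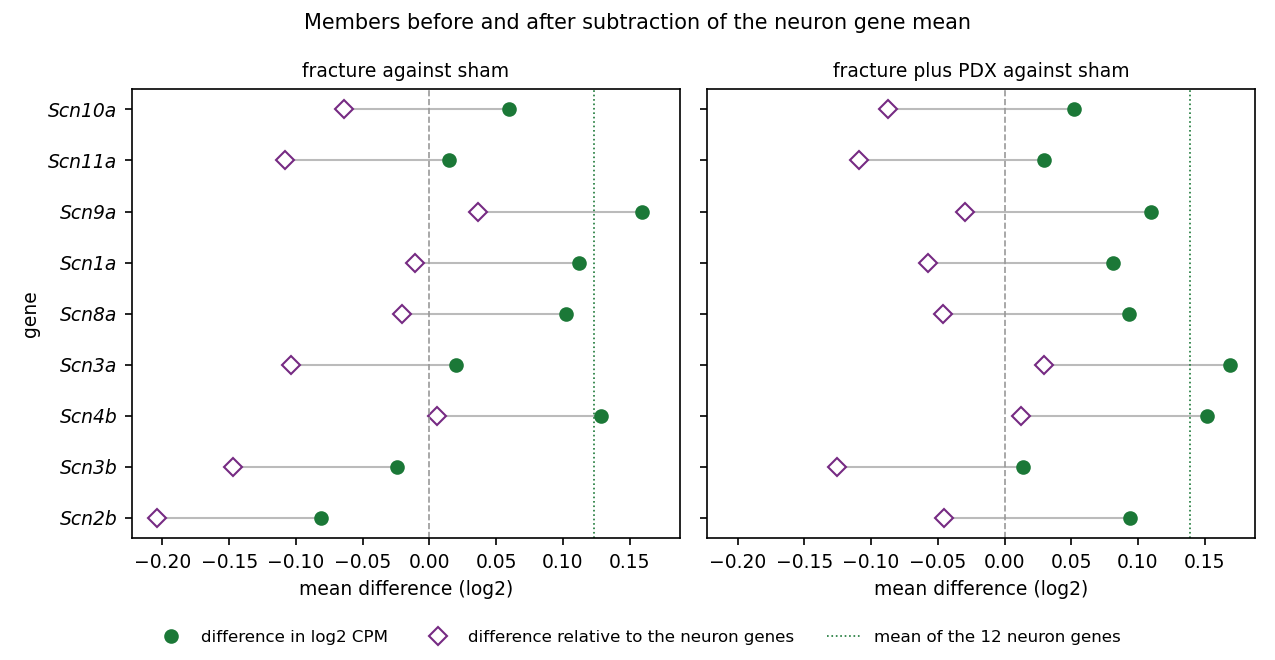
Mean difference from Sham of each member in log2 CPM (filled circles) and after subtraction of the mean of the 12 neuron genes of the same library (open diamonds), on the horizontal axis. The dotted line marks the difference of the neuron genes themselves, 0.12 in Fracture and 0.14 in Fracture+PDX. After subtraction *Scn9a* lies at 0.04 in Fracture and *Scn2b* at -0.20.

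No member passed the test between fractured mice with and without PDX. Of 9 members, 0 were called in Fracture+PDX against Fracture, and 0 had an unadjusted p under 0.05. Among the 20562 genes tested, 0% were called by edgeR at an adjusted p under 0.05, with a smallest adjusted p of 0.671, and 5.41% had an unadjusted p under 0.05. DESeq2 called 9 genes higher and 6 lower in this comparison, and none of them was a member. The groups of 0 of the 9 members were free of overlap, against 0.277% of genes. Above 0, with none called, lay 7 of 7 neutrophil (median 1.14), 6 of 6 macrophage (median 0.21) and 6 of 6 red blood cell genes. So did 5 of 6 satellite glia, 4 of 7 Schwann cell, 2 of 5 fibroblast and 1 of 5 endothelial genes. Of muscle (median -1.91) and placental genes, 0 of 8 each lay above 0. The part of these lists in the values of the members was not tested.

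The intervals state how large a difference with PDX remained possible. *Scn10a* ranged from 655 to 831 CPM in Fracture+PDX with a median of 750.1, and differed from Fracture by -0.01 on the log2 scale (95% interval -0.10 to 0.08). *Scn11a* ranged from 344 to 449 CPM and differed by 0.01 (95% interval -0.10 to 0.13). *Scn9a* ranged from 243 to 339 CPM with a median of 297 and differed by -0.05 (95% interval -0.18 to 0.08, adjusted p = 0.980). For these 3 genes of the nociceptor, a fall of more than 0.18 on the log2 scale lay outside the interval.

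The remaining members had intervals of unequal width. *Scn1a* and *Scn8a* differed by -0.03 and -0.01, *Scn3b* by 0.04 and *Scn4b* by 0.02. *Scn3a* was at 5.12 to 6.53 CPM with PDX and differed by 0.14 (95% interval -0.08 to 0.37). *Scn2b* had the widest interval, from -0.15 to 0.57 around 0.21. Its Fracture+PDX mice ranged from 25.6 to 47.3 CPM with a median of 35.6, and 3 of them lay above every Fracture mouse and 1 below. The coefficient of variation of *Scn2b* was 26.6% in Fracture+PDX, 10.9% in Fracture and 9.30% in Sham.

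Against Sham, all 9 members had a fold change above 0 in Fracture+PDX and 0 of 9 were called, against 4.5% of 20574 genes. This comparison shares its Sham mice with that of Fracture against Sham. *Scn4b* ranged from 309 to 405 CPM with PDX, and 3 of 6 mice lay above every Sham mouse. It was the 1 of 9 members with an unadjusted p under 0.05, against 18% of genes, at a log2 fold change of 0.16 (SE 0.063, 95% interval 0.02 to 0.29, adjusted p = 0.206). *Scn9a* lay at 0.12 (95% interval -0.009 to 0.24, adjusted p = 0.319), with 4 of 6 mice above every Sham mouse and 1 below. *Scn3a* lay at 0.17 (95% interval -0.03 to 0.37). *Scn10a* and *Scn11a* lay at 0.05 and 0.03. The neuron genes were higher by 0.14 here (exact permutation test, p = 0.00216, the smallest that 6 against 6 mice can give). Relative to them, *Scn9a* lay at -0.03 and *Scn4b* at 0.01. Of the lists of other cells, 6 of 8 placental genes, 2 of 5 endothelial, 1 of 6 macrophage and 1 of 7 Schwann cell genes were called lower and none higher, with 0 of 5 fibroblast and 0 of 8 muscle genes called. Of 6 satellite glia genes, 1 was called higher. Among all genes tested here, 2.32% were called lower and 2.17% higher. The summed CPM of the placental genes ranged from 170.4 to 550 in Sham and from 28.2 to 137 in Fracture+PDX, so these groups did not overlap. That of the endothelial genes ranged from 104 to 145 and from 85.7 to 101, also without overlap. That of the macrophage genes ranged from 72.8 to 81.3 and from 54.9 to 74.3, and that of the Schwann cell genes from 10716 to 24283 and from 15301 to 17093. Their part in the values of the members was not tested here either. The groups of 0 members were free of overlap, against 2.97% of genes.

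No member passed the adjusted test for sex. Over all 18 libraries with group in the model, 0 of 9 members were called, against 0.291% of 21340 genes, and 4 of 9 had an unadjusted p under 0.05, against 10.1%. *Scn10a* had the smallest p of the members, at a log2 difference of females from males of -0.12 (95% interval -0.19 to -0.04, adjusted p = 0.226). *Scn9a* and *Scn11a* each lay at -0.11, with adjusted p of 0.386 and 0.377, and *Scn3b* lay at -0.07 (adjusted p = 0.451). Of 9 members, 7 were below 0. *Scn2b* lay at 0.12, with an interval from -0.12 to 0.36.

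The means of the sexes were furthest apart with PDX for *Scn10a* and *Scn11a*, and also for *Scn1a*, *Scn2b*, *Scn4b*, *Scn8a* and *Scn9a*. This was not so for *Scn3a* and *Scn3b*. In Fracture+PDX the 3 males ranged from 779 to 831 CPM of *Scn10a* and the 3 females from 655 to 721, and *Scn11a* ranged from 399 to 449 in males and from 344 to 388 in females, so neither overlapped. These were 2 of 9 members, against 13.6% of genes whose 3 males and 3 females did not overlap in that group. In Sham it was 1 of 9, *Scn3b*, against 14% of genes, and in Fracture 0 of 9, against 12.6%. The interaction of sex with PDX called 0 of 9 members, against 0.00486% of genes. *Scn11a* was the 1 of 9 with an unadjusted p under 0.05, against 4.14% of genes, at -0.21 (95% interval -0.42 to -0.008, adjusted p = 0.998). The interaction of sex with fracture called 0 of 9 members and 0% of genes by edgeR, while DESeq2 called 27 genes higher and 38 lower. *Scn3b* was the 1 of 9 with an unadjusted p under 0.05 there, against 7.2% of genes, at 0.17 (95% interval 0.009 to 0.33, adjusted p = 0.659). In Sham its males ranged from 91.0 to 99.8 CPM and its females from 82.2 to 89.0, while in Fracture the males ranged from 85.6 to 94.5 and the females from 88.7 to 91.2.

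The other sodium channel subunits *Scn2a*, *Scn4a* and *Scn7a* were called in none of the 3 comparisons of groups. *Scn7a*, the sodium-sensing Nax, had means of 51.7 FPKM in Sham and 54.4 in Fracture, and its log2 fold change was 0.09 (adjusted p = 0.355). *Scn2a* was low, with a mean of 0.535 FPKM in Sham, 0.593 in Fracture and 0.713 in Fracture+PDX, and lay at 0.45 in Fracture+PDX against Sham (adjusted p = 0.0668). *Scn4a*, the channel of skeletal muscle, had a log2 fold change of 0.24 with fracture.

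Of 14 partners of the channels, which include the fibroblast growth factor homologous factors, ubiquitin ligases and calmodulins, 0 were called in fracture against sham, and 13 had a fold change above 0 with a median of 0.08. In Fracture+PDX against Sham, 1 of 14 was called, *S100a10*, which carries *Scn10a* channels to the membrane, at 0.18 (adjusted p = 0.0379). A list of 10 genes for nodes and the axon initial segment, where channels are anchored, also held *Tubb3*, a tubulin of neurons in general that is in the list of 12 neuron genes as well. *Tubb3* was the 1 gene of that list called with fracture, at a log2 fold change of 0.17 (adjusted p = 0.0126), and no other gene of the list was called there. In Fracture+PDX against Sham 2 of the 10 were called, *Tubb3* again, at 0.21, and *Cntn2*, an adhesion protein of the juxtaparanode, at 0.21 (adjusted p = 0.0110). None of these genes was called between Fracture+PDX and Fracture. The shares of all genes called were 2.92% with fracture, 4.5% in Fracture+PDX against Sham and 0% in Fracture+PDX against Fracture.

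Of 10 genes of axon injury, 6 were called higher with fracture and 0 lower, with a median log2 fold change of 1.09 over the list. Among all genes tested, 1.09% were called higher and 1.83% lower. *Atf3*, a transcription factor of injured neurons, rose by 1.65 (adjusted p = 0.0141), *Npy* by 2.51 (adjusted p = 0.0336), *Gadd45a* by 0.76 (adjusted p = 0.0283) and *Sprr1a* by 3.83 (adjusted p = 0.0405). The largest member fold change in that comparison, *Scn9a* at 0.16, was below each of the 6 called, of which *Sox11* had the smallest at 0.39. In Fracture+PDX against Sham 7 of 10 were called higher, against 2.17% of genes. In Fracture+PDX against Fracture 0 of 10 were called, against 0% of genes, while 10 of 10 had a fold change above 0 (median 0.45).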

How the data were processed

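RNA from L3–L5 DRG of 18 mice was sequenced as poly(A)-selected, stranded mRNA libraries. The submitters' processing notes name cutadapt 1.10, FastQC, HISAT2, StringTie and the build mm10. The counting program and its strand setting are not given in the sources used here. The deposited counts per gene were raw, and the FPKM values were normalized by the authors for length and library size. Columns named as controls were read as Sham. Counts were tested in R 4.3.3 with edgeR 4.0.16 (filterByExpr with minimum count 10 and minimum total 15, TMM scaling, robust quasi-likelihood fit with sex as covariate) on the 12 libraries of each comparison, at a Benjamini-Hochberg adjusted p under 0.05. Single values were tested by two-sided exact permutation of mice on log2 CPM (prior count 2), where 6 against 6 cannot go below p = 0.00216. FPKM served for levels between genes. Coding stretches came from the principal transcript of each gene. DESeq2 1.42.0 and limma 3.58.1 served as alternatives. The scripts were tested on counts simulated at the depth and spread of the Fracture and Sham libraries, with changed genes drawn over all levels. Of 50 genes each, 0 were called at a 1.1-fold change, 11 at 1.25-fold and 36 at 2-fold. Small differences would thus mostly go uncalled. Members and lists were chosen with earlier results of these data known. Every member was named. Of the lists of other subunits, partners, nodes and axon injury, up to 5 called genes were named per comparison, and the other subunits were named save those not reported here. Of the 3 genes most like each member by correlation, the first is given.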

Additional observations from a re-analysis of the deposited data

Results flagged for a closer look

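*Scn11a* had 1 Sham library far from the other 5. Sham male replicate 2 stood at 445 CPM, the next library at 392 and the lowest at 371, so that the gap to the next value took 0.695 of the range of the group (Dixon's ratio, against a 95% critical value of 0.625 for 6 samples). Dixon's ratio was computed for 30 groups of 6, and this was the 1 that passed. About 1 in 20 such groups would pass by chance. Without this library the log2 fold change of *Scn11a* in fracture against sham was 0.05 in place of 0.02.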

How the results depend on the processing

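The direction of the *Scn9a* difference with fracture was the same in the 9 other settings and the 12 fits without 1 library. Its call was lost with all 18 libraries in one fit (adjusted p = 0.110), in limma on log2(FPKM + 1) (adjusted p = 0.0745) and in limma on log2(FPKM + 0.1) (adjusted p = 0.0743), with 0 members called in each, and over the 12 fits without 1 library 0 to 1 members were called. With DESeq2 its adjusted p was 0.00616. Of the pairs of mice with the same sex and number in the labels, 0 of 6, 1 of 6 and 0 of 6 in the 3 comparisons correlated above 0.1. With 3 mice per sex and group, this cannot settle whether the numbers pair the mice. With a replicate block, fracture against sham had 25 genes called higher and 93 lower, 0 of them members, at a *Scn9a* log2 fold change of 0.16 (adjusted p = 0.0973), and fracture plus PDX against sham had 213 higher and 273 lower. Precision sets the limit elsewhere: intervals of the low genes *Scn3a* and *Scn2b* span over 0.3 on the log2 scale. The causes of these shifts were not tested.

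Counts over all genes moved more. DESeq2 called 606 higher and 905 lower in fracture against sham, 9 and 6 in fracture plus PDX against fracture, and 803 and 817 in fracture plus PDX against sham. For sex it called 139 higher and 193 lower, against 24 and 38 in edgeR, for sex by fracture 27 and 38, and for sex by PDX 4 and 4. limma called 116 and 119 higher at the 2 pseudocounts in the first comparison and 232 and 243 in the third. Without 1 library, the first gave 68 to 292 higher and 145 to 463 lower, the second 0 to 1 lower, and the third 217 to 494 higher and 281 to 514 lower. The difference in the resistant share of fracture against sham ranged from -1.43 to -0.675 points.

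Differences near 0 changed sign. Without 1 library, the log2 fold change was -0.026 to 0.10 for *Scn3a* and -0.047 to 0.0011 for *Scn3b* in fracture against sham. It was -0.062 to 0.024 for *Scn1a*, -0.033 to 0.031 for *Scn8a*, -0.039 to 0.018 for *Scn10a*, -0.029 to 0.049 for *Scn11a* and -0.018 to 0.060 for *Scn4b* in fracture plus PDX against fracture. It was -0.0037 to 0.042 for *Scn3b* in fracture plus PDX against sham, where limma gave -0.00090 and -0.00087. Relative to the neuron genes and without 1 library, the difference was -0.042 to 0.026 for *Scn1a*, -0.057 to 0.0069 for *Scn8a* and -0.020 to 0.029 for *Scn4b* in fracture against sham. It was -0.051 to 0.0043 for *Scn10a*, -0.031 to 0.032 for *Scn11a* and -0.028 to 0.033 for *Scn4b* in fracture plus PDX against fracture, and -0.014 to 0.065 for *Scn3a*, -0.073 to 0.016 for *Scn9a*, -0.13 to 0.052 for *Scn2b* and -0.022 to 0.039 for *Scn4b* in fracture plus PDX against sham. Relative to the nociceptor genes, the sign turned in fracture against sham for *Scn1a* at 0.029 and *Scn8a* at 0.019. It turned in fracture plus PDX against fracture for *Scn1a* at 0.0044, *Scn8a* at 0.026, *Scn10a* at 0.028 and *Scn11a* at 0.050. It turned in fracture plus PDX against sham for *Scn1a* at 0.033, *Scn8a* at 0.045, *Scn9a* at 0.061, *Scn10a* at 0.0035 and *Scn2b* at 0.045.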

Other observations

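Some members varied together from mouse to mouse. Over the 18 libraries, Pearson's r of log2 CPM, after the mean of each group was subtracted, between pairs of members ran from -0.27 to 0.86 with a median of 0.27, and 28 of 36 pairs were above 0. The highest was *Scn10a* with *Scn11a*, both on chromosome 9 and both known from nociceptors, and *Scn9a* with *Scn10a* and *Scn1a* with *Scn8a* each reached 0.70. Compared with all genes of at least 10 CPM, the gene most like *Scn11a* was *Scn10a*. The most alike gene was *Cntnap4* for *Scn9a* at 0.90, *Dock11* for *Scn10a* at 0.91, *Epb41l3* for *Scn8a* at 0.93, *Sacm1l* for *Scn1a* at 0.87 and *Pigz* for *Scn3a* at 0.82. It was *Dhx30* for *Scn2b* at 0.79, *Agtr1a* for *Scn3b* at 0.84 and *Miga2* for *Scn4b* at 0.85. These values describe 18 libraries that differ in sex and depth, neither of which was removed beyond the scaling to CPM, and the genes were picked as the highest of 10560 compared (10561 for *Scn3a*), so they carry no test.

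The members followed the neuron genes to unequal degrees. The correlation, taken in the same way, with the mean of the 12 neuron genes over the 18 libraries was 0.60 for *Scn9a*, 0.58 for *Scn1a*, 0.56 for *Scn4b*, 0.56 for *Scn8a*, 0.51 for *Scn10a* and 0.48 for *Scn3a*. It was 0.25 for *Scn11a*, 0.25 for *Scn2b* and 0.02 for *Scn3b*.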
